A study of Homo sapiens with 6 samples.

Results

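The genes described here are 10 regulators and markers of the epithelial-mesenchymal transition (EMT): the transcription factors SNAI1, SNAI2, ZEB1, ZEB2 and TWIST1, the cadherins CDH1 and CDH2, the filament protein VIM, the matrix glycoprotein FN1 and the epithelial transcription factor OVOL1. They were chosen by name, and all 10 were found among the 60671 gene rows of the count table. RNA was measured in 3 lung adenocarcinoma cell lines, each of which gave 1 library after AL-X and 1 after DMSO, its solvent, so 6 libraries in all. The compound, 9α,11α-dihydroxy-kaurenoic acid (AL-X), is a diterpenoid, and cells received 10 µg/mL of it, or DMSO alone, for 48 h. All 3 are labelled wild type for genotype, which here means that no engineered change is named. The labels do not say whether the cultures were repeated.

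In EMT, epithelial cells loosen their contacts and take on a motile, mesenchymal form. SNAI and ZEB proteins are zinc-finger repressors and TWIST1 is a helix-loop-helix factor. They bind E-box motifs and lower E-cadherin, the CDH1 product that holds epithelial cells together, while N-cadherin (CDH2), vimentin (VIM) and fibronectin (FN1) usually go up. OVOL1 opposes the program. MicroRNAs of the miR-200 family repress the ZEB mRNAs, and ZEB proteins in turn repress the miR-200 genes. In lung adenocarcinoma lines the state varies widely between lines.

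Library totals ran from 98139178 to 126840915 counts. The AL-X libraries held 24046 to 26694 detected genes, against 26979 to 27874 in the DMSO libraries. Genes of the mitochondrial genome took 0.0201% to 0.656% of counts with AL-X and 6.41% to 6.87% with DMSO. Levels are counts per 1e6 counts (CPM) after trimmed-mean (TMM) scaling, whose factor was 0.557 in A549 with AL-X, against 1.12 in A549 with DMSO. When library totals alone set the scale, the median fold of all genes moved on the log2 scale, by -1.0 in A549, by 0.13 in HCC827 and by -0.41 in H1975. Folds within a line are therefore relative to that line's other genes. Within a line no test was possible, and the 95% intervals are exact binomial ones that cover counting error only. The labels held up on known features of A549 and HCC827. CDKN2A, which A549 has lost, had 0 CPM in both A549 libraries. EGFR, which is amplified in HCC827, was highest there at 2210 CPM with AL-X and 3652 CPM with DMSO. These features do not check the label of H1975 or those of the treatments. Of 12 epithelial markers 6 to 12 reached 5 CPM in every library. Of 11 fibroblast markers, 8 endothelial markers and 10 leukocyte markers, 0 to 1, 0 to 1 and 1 to 2 did so. Their summed levels were 2.92 to 9.61 CPM with AL-X and 7.83 to 21.2 CPM with DMSO for fibroblast markers, and 0.965 to 4.05 CPM and 0.353 to 7.20 CPM for endothelial markers. The leukocyte sum was 22.7 to 382 CPM with AL-X and 23.0 to 87.3 CPM with DMSO, most of it CD68 (371 CPM with AL-X and 69.7 CPM with DMSO in HCC827). PTPRC and CD3E had 0 counts in all 6 libraries. The part of CD68-expressing cells in the results was not tested. In bulk RNA, fewer cells of a kind and less RNA per cell cannot be told apart.

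SNAI1 (ENSG00000124216, GRCh38 chromosome 20, 49982999 to 49988886, plus strand), the repressor known as Snail, was the member that differed most. Its level was 2447 CPM in A549, 55.3 CPM in HCC827 and 671 CPM in H1975 with AL-X, against 4.77, 4.17 and 26.9 CPM in the same lines with DMSO. Every AL-X library lay above every DMSO library. Among the 20344 genes tested across lines, 7.78% had this pattern, and in 9.54% every AL-X library lay below every DMSO library. A549 had a log2 fold of 9.00 (counting interval 8.89 to 9.12), HCC827 of 3.72 (3.61 to 3.85) and H1975 of 4.64 (4.59 to 4.69). On a linear scale the level was 513-fold, 13.3-fold and 24.98-fold higher. Ranked by fold among genes whose higher library reached 5 CPM, SNAI1 was number 32 of 11973 in A549, 48 of 11938 in HCC827 and 34 of 11818 in H1975. With library totals the folds were 7.99, 3.85 and 4.23.

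**Figure D1:**
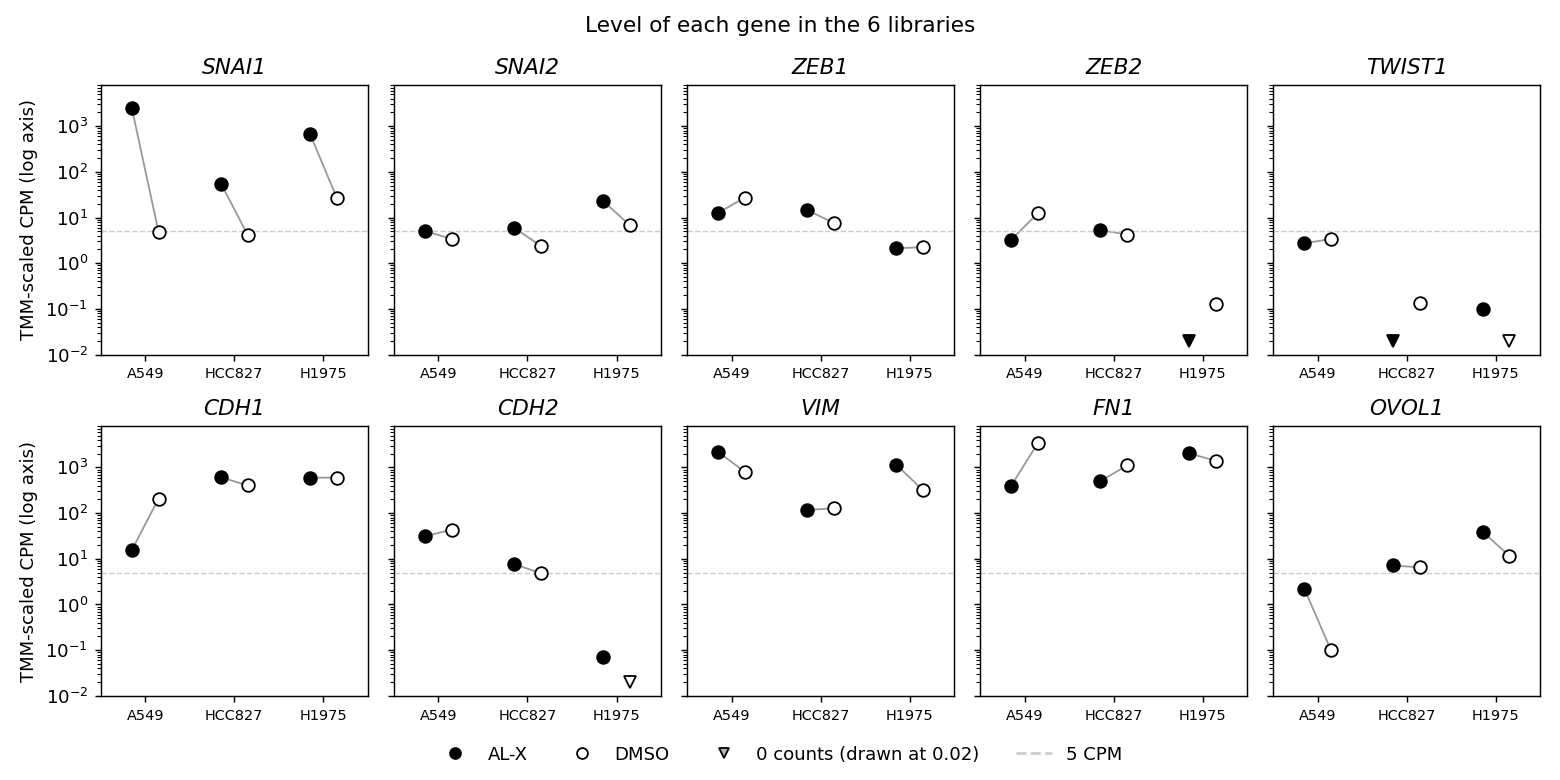
Level of each of the 10 genes (TMM-scaled CPM, log axis) in the 3 lines, with AL-X libraries as filled and DMSO libraries as open symbols, 1 library per point. SNAI1 spans 55.3 to 2447 CPM with AL-X and 4.17 to 26.9 CPM with DMSO, and the groups of the other 9 genes overlap.

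Across the 3 lines the fold of SNAI1 was 5.50 log2 units (SE 1.11, unadjusted p = 0.00033, adjusted p = 0.0715; edgeR's quasi-likelihood test with the line as block and Benjamini-Hochberg adjustment over all genes), which missed the 0.05 threshold. By the same test 0.256% of all genes were called (0.0983% higher, 0.157% lower), and 0 of the 10 members were. At an unadjusted p under 0.05 there were 2 members, SNAI1 and OVOL1, beside 3199 of all 20344 genes. DESeq2 and limma-voom each called SNAI1 and no other member (adjusted p = 5.15e-08 and 0.00269). Of all 20344 genes, DESeq2 called 1986 and limma-voom 618. Leaving out A549 gave 4.23 for SNAI1 (adjusted p = 0.000478) and leaving out HCC827 gave 6.78 (adjusted p = 0.0234), while leaving out H1975 gave 6.36 (adjusted p = 0.129). Over all alternatives the adjusted p of SNAI1 ran from 5.15e-08 to 0.569. The fold in A549 exceeded the mean of the other lines by 4.82 (SE 1.37, adjusted p = 0.111), so a difference in response between lines was not shown.

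SNAI2 (ENSG00000019549, chromosome 8, 48917604 to 48921740, minus strand), is the related repressor Slug. It had 5.03 CPM in A549, 6.00 CPM in HCC827 and 22.9 CPM in H1975 with AL-X, and 3.42, 2.39 and 6.76 CPM with DMSO. H1975 was highest under both treatments, and the groups overlapped. The log2 fold was 0.55, 1.32 and 1.76, though in A549 it was -0.45 with library totals. Across lines it was 1.22 (SE 0.68, edgeR adjusted p = 0.404). Per kb of merged exons, SNAI1 stood at 1451 CPM and SNAI2 at 1.48 CPM in A549 with AL-X, against 2.83 and 1.01 CPM with DMSO. The ratio of the pair within a library does not depend on scaling. As log2 of counts per exonic base, it was 9.93, 4.21 and 5.88 in A549, HCC827 and H1975 with AL-X, against 1.49, 1.81 and 3.00 with DMSO.

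ZEB1 (ENSG00000148516, chromosome 10, 31318495 to 31529814, plus strand), a repressor of CDH1 and of the miR-200 genes, had 12.6 CPM in A549, 14.6 CPM in HCC827 and 2.12 CPM in H1975 with AL-X, against 27.5, 7.55 and 2.24 CPM with DMSO. It was lower in A549 (log2 fold -1.12, counting interval -1.23 to -1.01), higher in HCC827 (0.95, 0.84 to 1.06) and close to level in H1975 (-0.08, -0.34 to 0.18). ZEB2 (ENSG00000169554, chromosome 2, 144364364 to 144524583, minus strand) had 3.28, 5.31 and 0 CPM in A549, HCC827 and H1975 with AL-X, against 12.5, 4.25 and 0.128 CPM with DMSO. Its log2 fold was -1.93 in A549 (-2.14 to -1.73) and 0.32 in HCC827 (0.16 to 0.48). In H1975 it had 0 counts with AL-X and 16 with DMSO, at least 4.31-fold lower against a floor of 3 counts. Across lines ZEB1 was -0.08 (SE 0.67, edgeR adjusted p = 0.962) and ZEB2 -1.68 (SE 1.10, adjusted p = 0.465).

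TWIST1 (ENSG00000122691, chromosome 7, 19020991 to 19117672, minus strand) was present almost only in A549, with 185 counts (2.75 CPM) with AL-X and 413 counts (3.39 CPM) with DMSO. HCC827 had 0 counts with AL-X and 20 with DMSO, at least 5.64-fold lower. H1975 had 10 counts with AL-X and 0 with DMSO, at least 4.13-fold higher. No library reached 5 CPM. The across-line fold of -0.29 (SE 1.90, edgeR adjusted p = 0.953) therefore rests on few counts outside A549.

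The miR-200 family meets ZEB1 and ZEB2 through short seed matches after the stop codon, and its sequences are shown because host-gene counts and ZEB levels can be set side by side. The mature forms, from RefSeq on GRCh38.p14, are printed with the seed (bases 2 to 8) in capitals. The mature miR-200c-3p lies at chr12:6963742-6963764, miR-141-3p at chr12:6964155-6964176 and miR-200b-3p at chr1:1167160-1167181, all on the plus strand.
hsa-miR-200c-3p: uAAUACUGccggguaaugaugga
hsa-miR-200b-3p: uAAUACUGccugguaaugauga
hsa-miR-141-3p: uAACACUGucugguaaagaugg
The first pair share a seed, and that of miR-141 differs from it. In the main ZEB1 transcript of GENCODE release 29, the 1938 bases after the stop codon hold 5 matches to the miR-200c seed and 3 to the miR-141 seed. In ZEB2 the 5370 bases after the stop codon hold 5 and 4. A pair of miR-200c matches from each, in capitals, read as follows.
ZEB1, chr10:31527618-31527647, plus strand: attgttttatcttatCAGTATTatcactct
ZEB1, chr10:31528492-31528521, plus strand: ctgatttttacctatCAGTATTattttatt
ZEB2, chr2:144388539-144388568, minus strand: gttcattaattttgtCAGTATTacaccaaa
ZEB2, chr2:144388982-144389011, minus strand: cgcactacaatgcatCAGTATTatgattcc
Mature microRNAs are not measured in mRNA libraries, and a match is no evidence of binding here. MIR200CHG, the host transcript of miR-200c and miR-141, had 0, 5.26 and 0.652 CPM in A549, HCC827 and H1975 with AL-X, against 0.00821, 1.05 and 0.383 CPM with DMSO. A549, with the highest ZEB1 and ZEB2 under DMSO, held 0 and 1 counts of it. HCC827 had the highest MIR200CHG and also the highest ZEB1 and ZEB2 under AL-X. The across-line fold of MIR200CHG was 1.12 (SE 1.22, edgeR adjusted p = 0.655).

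CDH1 (ENSG00000039068, chromosome 16, 68737225 to 68835548, plus strand), E-cadherin, had 15.7 CPM in A549, 606 CPM in HCC827 and 599 CPM in H1975 with AL-X, against 209, 404 and 594 CPM with DMSO. A549 held the least under both treatments and stood apart with AL-X. There CDH1 was 13.3-fold lower (log2 fold -3.74, counting interval -3.83 to -3.65), number 618 from the bottom of 11973 genes. It was higher in HCC827 (0.58, 0.57 to 0.60) and level in H1975 (0.01, -0.01 to 0.03), where library totals gave -0.40. Across lines the fold was -0.87 (SE 0.91, edgeR adjusted p = 0.642), and without A549 it was 0.34. A549 differed from the mean of the other lines in its response by -4.03 (SE 1.25, unadjusted p = 0.00235, adjusted p = 0.144), which missed the threshold.

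CDH2 (ENSG00000170558, chromosome 18, 27950966 to 28177446, minus strand), N-cadherin, followed the line more than the treatment. It had 31.1 CPM in A549, 7.65 CPM in HCC827 and 0.0692 CPM in H1975 with AL-X, and 43.4, 4.83 and 0 CPM with DMSO. The log2 fold was -0.48 in A549 and 0.66 in HCC827. In H1975 it had 7 counts with AL-X and 0 with DMSO, at least 2.89-fold higher. Across lines it was 0.76 (SE 0.82, edgeR adjusted p = 0.650), while without A549 it was 1.86, without H1975 0.09 and by limma-voom 0.18.

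VIM (ENSG00000026025, chromosome 10, 17228259 to 17237593, plus strand), the intermediate filament of mesenchymal cells, had 2183 CPM in A549, 117 CPM in HCC827 and 1148 CPM in H1975 with AL-X, against 801, 128 and 315 CPM with DMSO. It was 2.73-fold higher in A549 (log2 fold 1.45, counting interval 1.44 to 1.46) and 3.65-fold higher in H1975 (1.87, 1.85 to 1.88). In HCC827 it was slightly lower (-0.13, -0.16 to -0.10), a direction lost with library totals, which gave 0.00. In A549 library totals gave 0.44. Across lines the fold was 1.08 (SE 0.71, edgeR adjusted p = 0.472).

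FN1 (ENSG00000115414, chromosome 2, 215360440 to 215436172, minus strand), fibronectin, went the other way in A549. It had 402 CPM in A549, 501 CPM in HCC827 and 2022 CPM in H1975 with AL-X, against 3443, 1105 and 1396 CPM with DMSO. It was 8.57-fold lower in A549 (log2 fold -3.10, -3.12 to -3.08), 2.204-fold lower in HCC827 (-1.14, -1.15 to -1.13) and 1.45-fold higher in H1975 (0.53, 0.53 to 0.54), where library totals gave 0.13. A549 was thus the highest line for FN1 with DMSO and the lowest with AL-X. Across lines the fold was -1.22 (SE 0.91, edgeR adjusted p = 0.521), and without A549 it was -0.25.

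OVOL1 (ENSG00000172818, chromosome 11, 65787022 to 65797219, plus strand), which holds cells in an epithelial state, had 2.197 CPM in A549, 7.15 CPM in HCC827 and 39.1 CPM in H1975 with AL-X, against 0.0985, 6.49 and 11.6 CPM with DMSO. The order H1975, HCC827, A549 held under both treatments. The log2 fold was 4.26 in A549, where 148 counts with AL-X stood against 12 with DMSO (counting interval 3.63 to 5.46), 0.14 in HCC827 (0.01 to 0.27) and 1.75 in H1975 (1.66 to 1.84). Across lines it was 1.99 (SE 0.89, unadjusted p = 0.0448, edgeR adjusted p = 0.310). Without A549 it was 0.99, and without HCC827 2.99. SNAI1, SNAI2 and OVOL1 were higher in every line, a pattern that 16.8% of all genes shared (25.4% were lower in every line) and that SNAI2 lost in A549 with library totals.

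**Figure D2:**
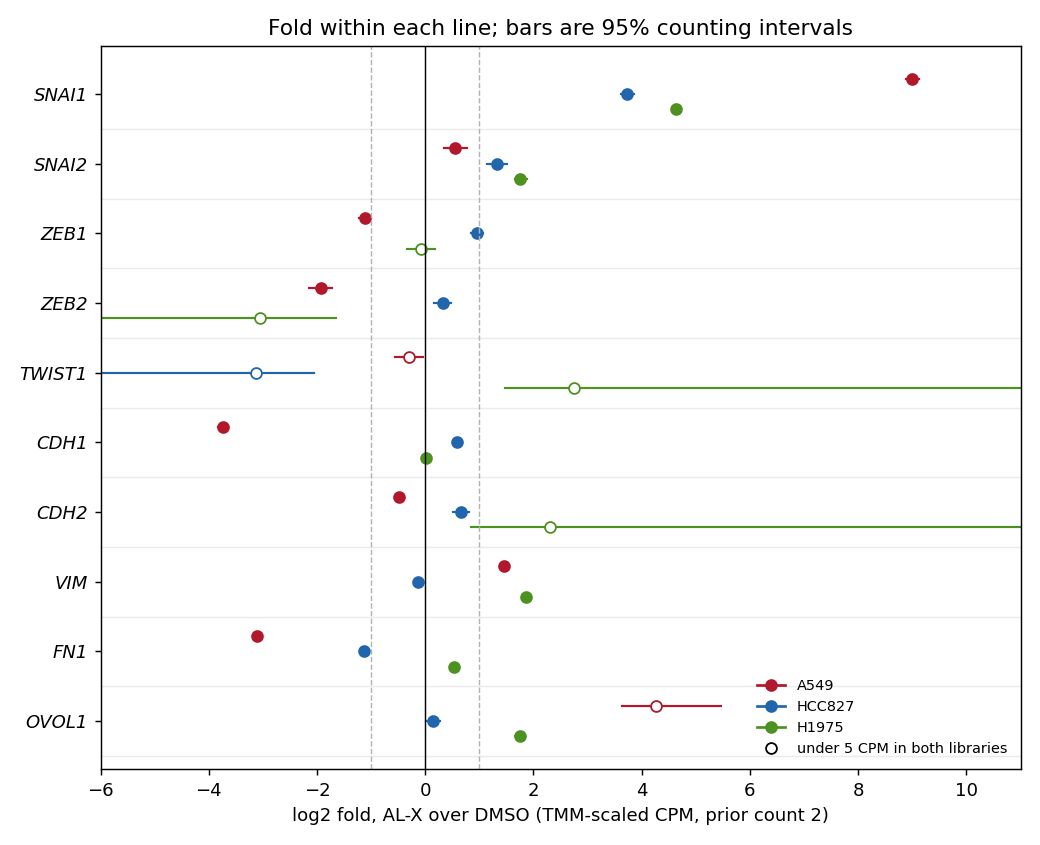
Log2 fold of AL-X over DMSO for each gene within each line (x axis, TMM-scaled CPM with a prior count of 2), with 95% counting intervals as bars, open symbols under 5 CPM in both libraries and dashed lines at 2-fold. SNAI1 lies at 9.00, 3.72 and 4.64, CDH1 and FN1 lie at -3.74 and -3.10 in A549, and with library totals the A549 points would lie about 1.0 lower, which turns SNAI2 there to -0.45.

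Counted at 2-fold or more and 5 CPM in the higher library, 2 members were higher (SNAI1 and VIM) and 4 lower (CDH1, FN1, ZEB1 and ZEB2) of the 8 considered in A549. There 61.6% of all genes differed, 29.8% higher and 31.8% lower, so the members' share was close to the background. In HCC827 2 of 9 were higher (SNAI1 and SNAI2) and 1 lower (FN1), where 28.0% of all genes differed (10.7% higher, 17.3% lower). In H1975 4 of 6 were higher (SNAI1, SNAI2, VIM and OVOL1) and 0 lower, where 33.2% differed (15.4% higher, 17.8% lower). The median fold of the members considered was -0.80 for A549, 0.58 for HCC827 and 1.76 for H1975, beside -0.02, -0.04 and 0.06 for all genes considered.

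**Figure D3:**
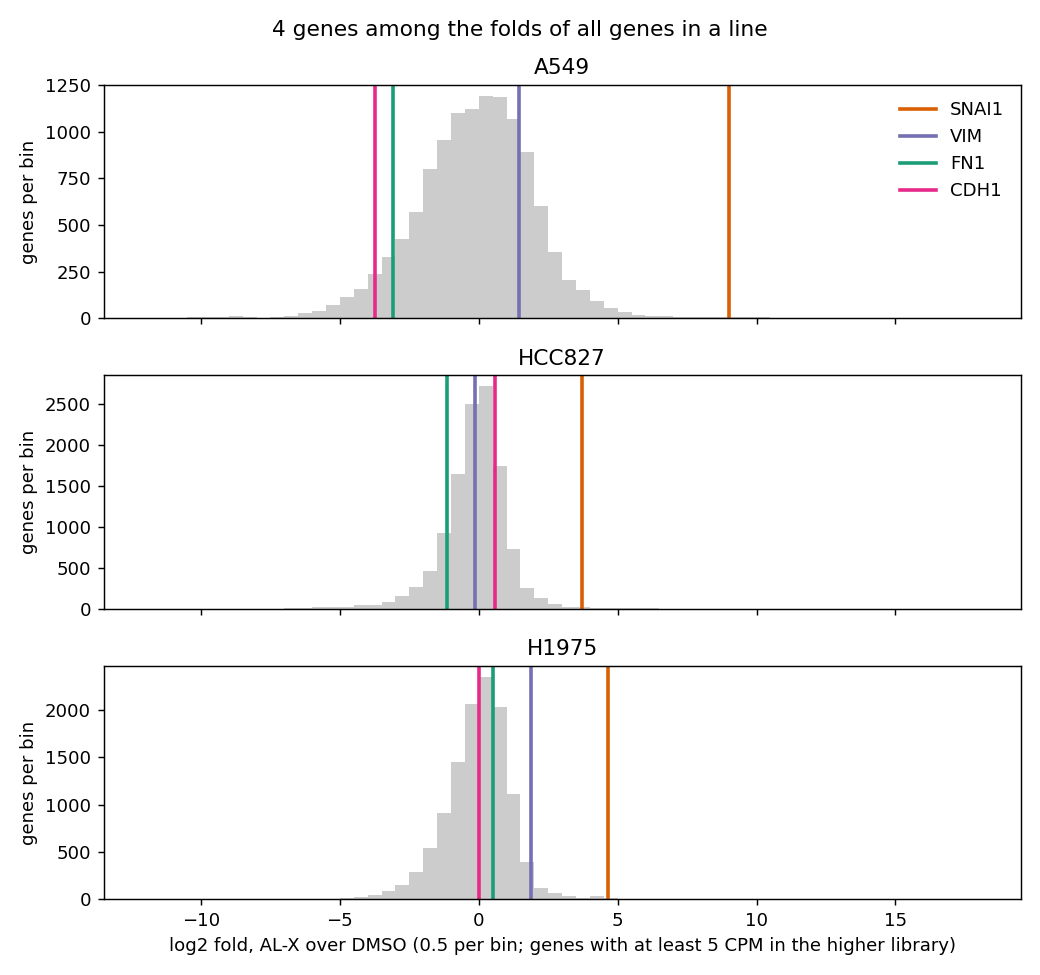
Number of genes per 0.5 log2 units of fold, AL-X over DMSO, in each line (grey bars, genes whose higher library reached 5 CPM), with the folds of SNAI1, VIM, FN1 and CDH1 as vertical lines. SNAI1 lies in the upper tail of all 3 lines, at 9.00, 3.72 and 4.64, and A549 has the widest spread of folds.

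In 2 lines, A549 and H1975, longer genes tended to have lower folds. Across protein-coding genes, which are not independent replicates, Spearman's rho between fold and merged exonic length came to -0.343 (A549, 10993 genes), -0.062 (HCC827, 11049 genes) and -0.351 (H1975, 10935 genes). SNAI1 has 1686 exonic bases, TWIST1 2033, SNAI2 3392, OVOL1 3849, CDH2 4950, VIM 5158, CDH1 6177, ZEB1 8650, FN1 17315 and ZEB2 25058, beside a median near 5296. The part of length in the members' folds was not tested.

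Ratios between members of 1 library are free of the scaling. As log2 of counts per exonic base, VIM over CDH1 was 7.38, -2.11 and 1.2 in A549, HCC827 and H1975 with AL-X, against 2.2, -1.40 and -0.66 with DMSO. The ratio was thus 5.18 units higher with AL-X in A549 and 1.86 higher in H1975, and 0.71 units lower in HCC827 (difference -0.71). CDH2 over CDH1 was 1.31 in A549 with AL-X, against -1.94 with DMSO. In A549 N-cadherin counts per base thus exceeded those of E-cadherin with AL-X and lay under them with DMSO. CDH2 itself was not higher there, with a log2 fold of -0.48 beside -3.74 for CDH1. In HCC827 CDH2 over CDH1 was -5.99 with AL-X and -6.07 with DMSO. FN1 over CDH1 was 3.20, -1.76 and 0.27 in A549, HCC827 and H1975 with AL-X, against 2.56, -0.04 and -0.26 with DMSO. In A549 this ratio was higher with AL-X although FN1 itself was lower (log2 fold -3.10).

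**Figure D4:**
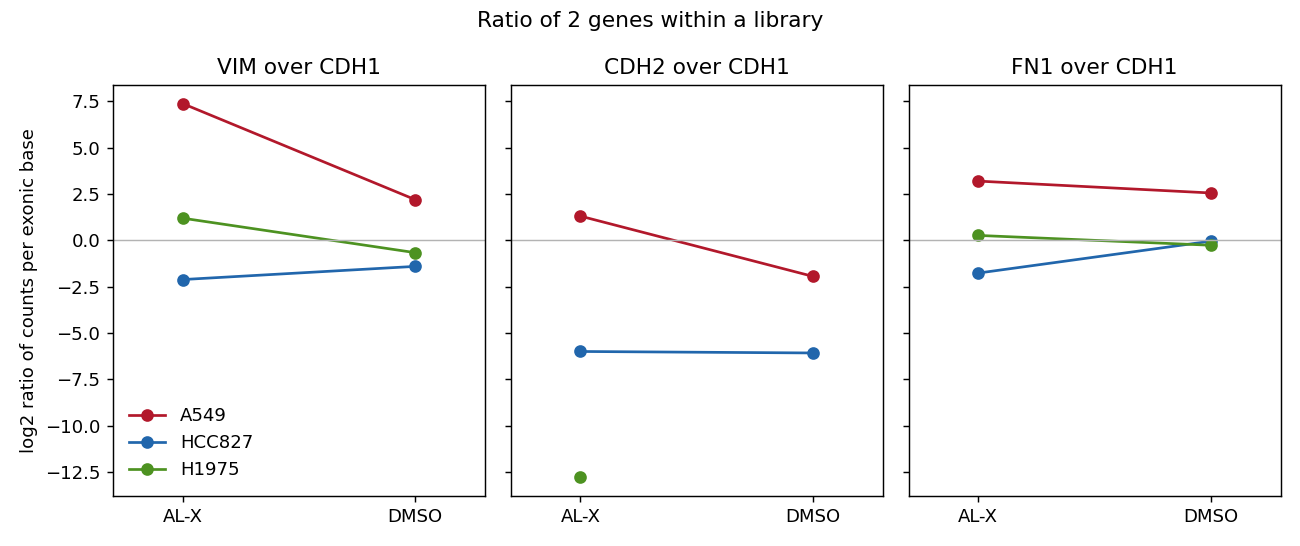
Log2 ratio of counts per exonic base for 3 pairs of genes within each library, AL-X at the left and DMSO at the right, 1 line per cell line. VIM over CDH1 is 7.38 in A549 with AL-X and 2.2 with DMSO, while in HCC827 it is -2.11 and -1.40. H1975 with DMSO has no CDH2 counts and so no CDH2 ratio.

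The lines themselves differed in several members when both treatments were held in 1 fit. A549 exceeded H1975 in CDH2 (10.40 log2 units, SE 1.38, edgeR adjusted p = 0.000651), ZEB2 (7.18, SE 1.52, adjusted p = 0.0118) and ZEB1 (3.19, SE 0.86, adjusted p = 0.0424), and was lower in OVOL1 (-5.02, SE 1.13, adjusted p = 0.0169). That made 4 of 10 members, where 7.41% of all genes were called (2.77% higher, 4.65% lower). HCC827 exceeded H1975 in CDH2 (7.68, SE 1.25, adjusted p = 0.0051) and ZEB2 (7.07, SE 1.57, adjusted p = 0.0326), 2 members where 2.86% of all genes were called (1.69% higher, 1.17% lower). With library totals the calls of ZEB1 (adjusted p = 0.201) and ZEB2 (0.0642) between A549 and H1975 were lost, as were those of CDH2 (0.0543) and ZEB2 (0.125) between HCC827 and H1975. The size of these CDH2 and ZEB2 differences rests on H1975 libraries of 7 and 0 counts and of 0 and 16 counts. A549 exceeded HCC827 in VIM (3.32, SE 0.92, adjusted p = 0.05, just inside the threshold, and 0.0508 with DESeq2 size factors), the 1 member called where 6.99% of all genes were (2.31% higher, 4.68% lower). CDH1 was lower in A549 than in HCC827 by a log2 difference of -2.67 (SE 1.11, adjusted p = 0.198). It was lower than in H1975 by -2.83 (SE 1.09, adjusted p = 0.168), and neither difference passed. Both are taken over the 2 treatments together. With DMSO alone CDH1 was at 209, 404 and 594 CPM in A549, HCC827 and H1975, against 15.7, 606 and 599 CPM with AL-X. HCC827 and H1975 were not told apart in CDH1 (-0.16, SE 0.95, adjusted p = 0.974). No member was called in the test of 1 line's response against the other lines, where 0.28% of genes were called for A549 (0.0983% higher, 0.182% lower), 0.261% for HCC827 (0.0885% higher, 0.172% lower) and 0.0% for H1975. At an unadjusted p under 0.05 there were 3, 3 and 2 members, beside 2245, 1667 and 236 of all 20344 genes.

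Promoter sequence was at hand for 5 of the 10 members (ZEB1, ZEB2, CDH2, VIM and FN1). The windows of 250 bases upstream of their annotated starts were searched on both strands for the SNAI and ZEB E-box CAGGTG, the cyclic-AMP element TGACGTCA and the AP-1 element TGACTCA, and no window shown holds more than 1 match, so that none overlap. The windows of FN1, VIM and the first ZEB1 start are shown because they lie, whole or in part, outside the annotated gene, and that of FN1 is cut where the gene begins. Matches are in capitals, and the sequences are from RefSeq on GRCh38.p14, 5′ to 3′ along each gene.
ZEB1, chr10:31318167-31318416, plus strand: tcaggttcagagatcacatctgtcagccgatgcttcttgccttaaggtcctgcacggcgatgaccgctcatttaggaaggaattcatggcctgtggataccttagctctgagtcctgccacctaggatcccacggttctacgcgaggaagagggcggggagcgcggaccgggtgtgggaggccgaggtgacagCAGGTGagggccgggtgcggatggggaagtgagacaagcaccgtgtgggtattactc
FN1, chr2:215436173-215436318, minus strand: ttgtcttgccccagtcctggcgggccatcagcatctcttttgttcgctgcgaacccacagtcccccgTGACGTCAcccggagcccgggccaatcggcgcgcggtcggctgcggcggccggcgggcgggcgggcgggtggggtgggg
VIM, chr10:17227991-17228240, plus strand: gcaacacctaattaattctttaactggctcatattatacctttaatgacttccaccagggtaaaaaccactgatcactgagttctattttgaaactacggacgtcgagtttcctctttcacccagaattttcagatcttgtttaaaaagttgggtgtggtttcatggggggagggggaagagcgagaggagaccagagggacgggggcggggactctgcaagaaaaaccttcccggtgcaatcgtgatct
The ZEB1 window holds 1 E-box, which begins 57 bases upstream of its start site. The FN1 window holds 1 cyclic-AMP element, which begins 183 bases upstream. The VIM window holds none of the 3 motifs. Of 35116 windows of 250 bases, 17.5% held the E-box, 1.65% the cyclic-AMP element and 4.2% the AP-1 element. Of the other ZEB1 starts, not printed, 1 had E-boxes beginning 242 and 85 bases upstream and the other 5 held no match. The windows of ZEB2 and of both CDH2 starts held none of the 3 motifs.

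Some genes overlap the members' exons on the other strand and have counts of their own. Reads in the shared bases may not be told apart from those of the members, since the strand setting is not given. ZEB1-AS1 shares 366 exonic bases with ZEB1. With AL-X its counts were 196 in A549, 1004 in HCC827 and 40 in H1975, against 403, 885 and 444 with DMSO. In H1975 with DMSO that was 158% of the ZEB1 count. VIM-AS1 shares 641 bases with VIM and reached at most 0.869% of its count. An antisense gene over CDH1 held at most 1 count in any library, and 1 over OVOL1 reached 19.6% of its count (29 against 148, in A549 with AL-X). ZEB2-AS1 reached 4.53% of the ZEB2 count. The CDH2 antisense gene had 10 counts in H1975 with DMSO, where CDH2 had 0.

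The other genes of the program were described from lists of names. Of 20 further EMT transcription factors, 16 were tested and 0 were called either way, and 7 of 11 considered were at least 2-fold lower in A549, 5 of 10 in HCC827 and 4 of 8 in H1975, where 31.8%, 17.3% and 17.8% of all genes considered were. Their median across-line fold was -1.44, beside -0.27 for all genes tested. SOX4, a developmental factor, had 13.8, 37.0 and 6.15 CPM in A549, HCC827 and H1975 with AL-X, against 57.0, 215 and 77.5 CPM with DMSO (log2 fold -2.74, SE 0.52, edgeR adjusted p = 0.0625). FOXC1 was 0.55 (SE 0.69, adjusted p = 0.702). Regulators of the epithelial state had a median of -1.22, with 0 of 15 called. EHF, an epithelial ETS factor, had 0.638, 5.16 and 2.15 CPM with AL-X, against 35.5, 77.0 and 12.3 CPM with DMSO (-4.04, SE 0.75, adjusted p = 0.0567). KLF5 had 889, 63.2 and 169 CPM with AL-X, against 77.8, 103 and 32.8 CPM with DMSO (1.83, SE 0.85, adjusted p = 0.324). Both of these lists thus had medians under that of all genes, and no library of SOX4 or EHF with AL-X reached its own line's DMSO level.

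Cofactors through which SNAI and ZEB proteins repress had a median of -0.24, with 0 of 18 called. The DNA methyltransferases DNMT3A (-2.04, SE 0.75, edgeR adjusted p = 0.237) and DNMT3B (-2.40, SE 0.93, adjusted p = 0.257) were at the low end, and EZH2, a histone methyltransferase, at the high end (1.24, SE 0.67, adjusted p = 0.391). Of 18 tested regulators of SNAI and ZEB protein stability 0 were called (median 0.14). LATS2, a kinase that phosphorylates Snail, had 232, 48.1 and 70.2 CPM with AL-X, against 20.5, 13.1 and 24.6 CPM with DMSO (2.28, SE 0.54, adjusted p = 0.116). GSK3A, a kinase related to the one that marks Snail for destruction, was 1.84 (SE 0.56, adjusted p = 0.174).

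Among partners of the cadherins, catenins and adherens junction genes had a median of -0.26 (0 of 17 called), and other cadherins -0.74 (0 of 10 called). JUP, or plakoglobin, which binds cadherin tails, had 15.3 CPM in A549 with AL-X, against 223 CPM with DMSO, a log2 fold of -3.86 beside the -3.74 of CDH1. In HCC827 JUP was -0.94 and in H1975 -0.37. JUP did not stand for its list in A549, where CTNNBL1 was 1.36 and CTNNAL1 2.59. Of the 14 catenin and junction genes considered in that line, 4 passed 2-fold downward and 2 upward. Their median there was -0.26. CDH3, P-cadherin, was at 183 CPM in HCC827 and 963 CPM in H1975 with AL-X, against 333 and 607 CPM with DMSO, and under 0.4 CPM in both A549 libraries. Desmosome genes had a median of -1.10 (0 of 8 called), with the plakins PPL (-2.17, SE 0.63, edgeR adjusted p = 0.162) and EVPL (-1.91, SE 0.51, adjusted p = 0.146) lowest. Proteases and endocytic genes that act on E-cadherin had a median of 0.44 (0 of 12 called).

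Among inducers, TGF-beta ligands, receptors and SMADs had a median of -0.36 (0 of 22 called). SMAD3, which carries the TGF-beta signal, had 16.4, 189 and 49.5 CPM in A549, HCC827 and H1975 with AL-X, against 199, 137 and 196 CPM with DMSO. Notch and WNT genes had a median of -0.88 (0 of 18 called), and 11 of 15 were at least 2-fold lower in A549, 4 of 12 in HCC827 and 2 of 13 in H1975, beside 31.8%, 17.3% and 17.8% of all genes. FZD7 (2.17, SE 0.51, adjusted p = 0.112) and WNT5A (-4.18, SE 1.08, adjusted p = 0.131) were near opposite ends. Mesenchymal effector genes had a median of -0.23 (0 of 18 called). In A549 2 of 10 were at least 2-fold higher and 4 lower, in HCC827 1 of 8 was higher and 5 lower, and in H1975 4 of 10 were higher and 0 lower. Of all genes 29.8%, 10.7% and 15.4% were higher in these lines and 31.8%, 17.3% and 17.8% lower. VCAN, a matrix proteoglycan, had 22.1, 32.9 and 122 CPM with AL-X, against 234, 739 and 86.3 CPM with DMSO. It was lower in A549 and HCC827 and higher in H1975, as FN1 was, but other genes of the list were not. In A549, HCC827 and H1975 the log2 fold of FBN1 was -3.60, -2.30 and -0.59. That of TNC was 2.16, -2.01 and 1.34, and that of SPOCK1 0.58, 1.08 and 1.38. Fibronectin receptors had a median of 0.23 (0 of 14 called), with TNS3 (-2.85, SE 0.73, adjusted p = 0.130) low and SDC4 (1.64, SE 0.76, adjusted p = 0.323) high.

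The genes most like each member over the 6 libraries were found by Pearson correlation of log2 CPM among 12299 protein-coding genes, as a description. For SNAI1 they were BAP1 (r = 0.999) and DEDD (0.998), for CDH1 ZNF74 (0.996) and KLHL29 (0.995), for VIM ZNF428 (0.992) and SKA1 (0.992), for FN1 SFXN2 (0.980) and NTHL1 (0.980), and for ZEB1 MED29 (0.993) and KCNG1 (0.991). With 6 libraries many genes reach such values: 186 had r of at least 0.95 with SNAI1 and 259 with CDH1. The measure ignores the size of the fold, since BAP1 differed by 1.98, 0.74 and 0.94 log2 units where SNAI1 differed by 9.00, 3.72 and 4.64.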

How the data were processed

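The authors deposited raw counts per Ensembl gene, not normalized, from SureSelect XT HS2 mRNA libraries, per the labels' protocols. The submitters' processing notes name bcl2fastq 2.20 and GRCh38. Which aligner, counter and annotation were used, whether strand was read and whether molecular barcodes were collapsed is not given in the sources used here. Of 60671 rows, 60401 matched a symbol and 58453 a position in GENCODE release 29. The members, lists and tests were chosen with earlier results of these data known, and p-values reflect the spread between these libraries alone.

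Counts were analysed with edgeR 4.0.16 in R 4.3.3 (filterByExpr on treatment, TMM, robust quasi-likelihood fit, SE taken from the F statistic). The cell line was the block, because both libraries of a line come from the same cells, which left 2 residual degrees of freedom. Line differences came from the same fit, and line-specific responses from an added term that left 1 residual degree of freedom and takes the spread of the remaining lines for a line alone. Within a line the log2 fold used a prior count of 2, and a gene was counted at 2-fold where its higher library reached 5 CPM. Bounds used a floor of 3 counts per library. Intervals and floors cover counting error only.

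Alternatives were DESeq2 size factors, library totals, mitochondrial genes left out, no filter, 1 CPM in 3 libraries, DESeq2 1.42.0, limma-voom (limma 3.58.1), no robust shrinkage, no block, each line left out, other prior counts and a 1 CPM minimum. Named genes were all members, up to 2 tested genes from either end of each list with at least 5 CPM in a library, and the 2 most correlated genes per member, of which those of 5 members are printed. CDKN2A, EGFR and CD68 are named as checks. The fitting code was tested on simulated counts, where only the median error of the fold decided a pass. That test therefore says nothing of how reliable the calls are.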

Additional observations from a re-analysis of the deposited data

Results flagged for a closer look

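Among lines where a member reached 5 CPM in the higher library, 5 members lay on opposite sides of 0 by more than counting error, with at least 1 line past 2-fold. How many of all genes did so was not counted, so the pattern is not shown to be particular to the members. At 2-fold or more, 61.6% of all genes considered differed in A549, 28.0% in HCC827 and 33.2% in H1975. Each member's value below is a log2 fold, AL-X over DMSO, from 1 library per treatment. ZEB1 was -1.12 in A549 and 0.95 in HCC827. ZEB2 was -1.93 in A549 and 0.32 in HCC827. CDH1 was -3.74 in A549 and 0.58 in HCC827. VIM was 1.45 in A549 and 1.87 in H1975, and -0.13 in HCC827. FN1 was -3.10 in A549 and -1.14 in HCC827, and 0.53 in H1975. With library totals the fold of VIM in HCC827 was 0.00, so that this contrast is lost. None of the 5 passed the test of 1 line's response against the mean of the others (edgeR), and the smallest adjusted p among them was that of CDH1 in A549, at 0.144.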

How the results depend on the processing

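With library totals the within-line fold of SNAI2 in A549 turned to -0.45 and that of CDH1 in H1975 to -0.40, and VIM in HCC827 came to 0.00. Genes called across lines numbered 52, against 0 with library totals (2792 at an unadjusted p under 0.05), 0 with no filter (3352), 12 without mitochondrial genes, 1986 by DESeq2, 618 by limma-voom and 0 with no replicate block (1722). Leaving out 1 line gave 106 to 184. Members called numbered 0, against 1 by DESeq2, 1 by limma-voom and 0 to 1 with a line left out, in each case SNAI1. Without the block by line no member was called. With a line left out the across-line folds ran from -0.64 to 0.49 for ZEB1 and -1.9 to 0.34 for CDH1 (both positive without A549) and from -2.22 to 1.41 for TWIST1 (positive without HCC827, with no value without A549). They ran from 0.99 to 2.99 for OVOL1, 0.09 to 1.86 for CDH2, 0.66 to 1.62 for VIM and -2.97 to -0.81 for ZEB2, and CDH1 turned to 0.02 and CDH2 to -0.31 without the block. For A549 against HCC827, 1422 genes were called, against 794 with library totals, 2248 by limma-voom and 3316 by DESeq2, and members numbered 1, against 0 with DESeq2 size factors (VIM, adjusted p = 0.0508), 5 by limma-voom and 6 by DESeq2. For A549 against H1975, 1508 genes were called, against 929 with library totals and 2951 by DESeq2, and members numbered 4, against 2 with library totals, which lost ZEB1 (adjusted p = 0.201) and ZEB2 (0.0642). For HCC827 against H1975, 581 genes were called, against 215, 955 and 1816 with library totals, limma-voom and DESeq2, and members numbered 2, against 0 with library totals (ZEB2 at 0.125, CDH2 at 0.0543) and 4 by DESeq2. With library totals SNAI2 (-0.40) and ZEB2 (-0.73) turned for A549 against HCC827, SNAI1 (-0.19, and -0.14 by limma-voom) for A549 against H1975, and CDH1 (0.20) for HCC827 against H1975. Line-specific responses called 57 genes for A549, against 0 with library totals (2614 at an unadjusted p under 0.05) and 24 with DESeq2 size factors, and 53 for HCC827, against 0 with library totals (1488). There VIM (-0.29) in A549 and CDH2 (0.74) in HCC827 turned with library totals, and ZEB1 in H1975 turned to -0.01 with DESeq2 size factors. None of these turned values passed a test. Members at least 2-fold higher in A549 numbered 2, against 1 (SNAI1) with library totals. The cause of these changes was not tested.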
